A study of Rattus norvegicus with 9 samples.

Results

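Complement and coagulation genes were followed in lung RNA of rats with metabolic syndrome (MetS) and of control rats. The list named 40 genes, and a gene was measured where a probe carried its symbol and no other, with older symbols counted as the same gene. This gave 36 members of the 14497 genes with such a probe on the array, each with 1 probe. The names C2 and Cfb shared a probe, C4a shared one with C4b, and for C5 no probe with that symbol was found, so these 4 were not analysed here. Cd59 was measured under its current rat symbol, Cd59b. The study used 7 Wistar rats, 3 with MetS and 4 controls. After weaning, the MetS rats drank nothing but 30% sucrose in water for 24 weeks, while control rats drank plain water. Both groups ate the same chow, which itself contained 3.7% sucrose, and the protocol names 7 hours of fasting before decapitation. Male sex is stated for the MetS group alone. The RNA came from whole lung tissue, with all its cells and blood together. A value here is the deposited log2 expression value of a probe on an Affymetrix whole-transcript array. MetS animal 1 and control animal 1 had 2 arrays each, which were averaged, so that n counts animals.

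Complement is a cascade of plasma proteins that marks microbes and damaged cells. It starts when C1q, built of A, B and C chains, binds a surface and activates the proteases C1r and C1s, or when C3 turns over spontaneously in the alternative pathway, and it ends in a membrane pore of terminal components. Coagulation starts when tissue factor binds factor VII and leads through thrombin to a fibrin clot, which plasmin then dissolves. The liver makes most circulating factors, but lung cells make several themselves: macrophages make C1q, endothelium carries thrombomodulin and the protein C receptor, and the lung is rich in tissue factor.

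The arrays were comparable in level but not in spread. The median of all 28826 probes lay between 7.64 and 7.69 in every animal, whereas the SD over all probes lay between 1.88 and 1.93 in the MetS animals and was 1.85, 1.77, 1.76 and 1.88 in controls 1 to 4. Controls 2 and 3 thus stood apart with the narrowest spread, and the members described at length are also given without them where that moved the difference clearly. The same was done with a spread-adjusted fit, which adds that SD as a term to the model. Among the controls only control 4 had an SD within the MetS range. Spread and group can thus hardly be separated with 7 animals, so values of that fit are a check and not corrected differences. Leaving out controls 2 and 3 turned the sign of 9 of the 36 differences and the spread-adjusted fit that of 15, so the small differences below have no firm direction. The defining markers of lung were bright in every animal: the alveolar type 2 list (5 of 5 measured) had a mean log2 value of 13.18 to 13.29 in MetS and 13.14 to 13.22 in controls. The red cell genes Hbb and Alas2, 2 of the 3 listed, had an unadjusted p under 0.05 with higher values in MetS (limma, adjusted p = 0.33 and 0.356). In the spread-adjusted fit both stood at a difference of 0.11, with limma unadjusted p = 0.385 for Hbb and 0.698 for Alas2, and without controls 2 and 3 Alas2 went from 0.63 to 0.31. Their mean log2 value lay between 11.99 and 12.32 in MetS and between 11.37 and 12.12 in controls. The part of blood content in the results was not tested. In such a tissue sample fewer cells of a type and less RNA per cell cannot be told apart.

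The question was whether complement and coagulation transcripts of the lung differed between rats with MetS and controls. As a group the members were centred on no difference. Their median difference, MetS minus control, was 0.01 on the log2 scale, equal to the 0.01 over all probes, with 20 of 36 above 0 and 16 below. Over the 14497 genes, taken with 1 probe each as the members were, the median was 0.04, with 8995 above 0 and 5502 below. No member passed the test over all probes: 0 of 36 had an adjusted p under 0.05 in limma, as did 0 of 28826 probes, or 0.0%. At an unadjusted p under 0.05 there were 2 members, 5.56% of the 36 beside 13.7% of all probes, and the 3 MetS values and 4 control values did not overlap for 2 members, 5.56% beside 11.7%. Both shares lay below the background, with only 2 members behind each. The median SD among the controls was 0.19 for the members and 0.14 over all probes. The part of that wider spread in the shares was not tested. The 2 members at the unadjusted threshold were properdin (Cfp) and urokinase (Plau), both lower in MetS, beside 9.91% of all probes lower and 3.82% higher; at an unadjusted p under 0.01 there was no member (0 of 36, beside 2.73%). The direction of the background moved with the scaling: 1102 probes were higher and 2857 lower as deposited, and 2312 were higher and 1993 lower after quantile normalization. Without overlap were Cfp, on the lower side, and protein S (Pros1), on the higher side, beside 6.84% and 4.88% of all probes. Sizes were small: the absolute difference was under 0.1 for 21 of 36 members, and its median was 0.09 beside 0.11 over all probes.

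The intervals show how much difference these animals leave room for. For 27 of the 36 members, or 75.0%, the whole 95% interval of the difference lay within 1.5-fold in either direction. For 34, or 94.4%, it lay within 2-fold. These shares were 79.9% and 92.0% over all probes, and 84.2% and 92.6% over the 14497 genes with 1 probe each. The 2 members that were exceptions at 2-fold were the pore component C6 and tissue factor F3. A smaller difference within an interval was not detectable with 3 and 4 animals.

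**Figure D1:**
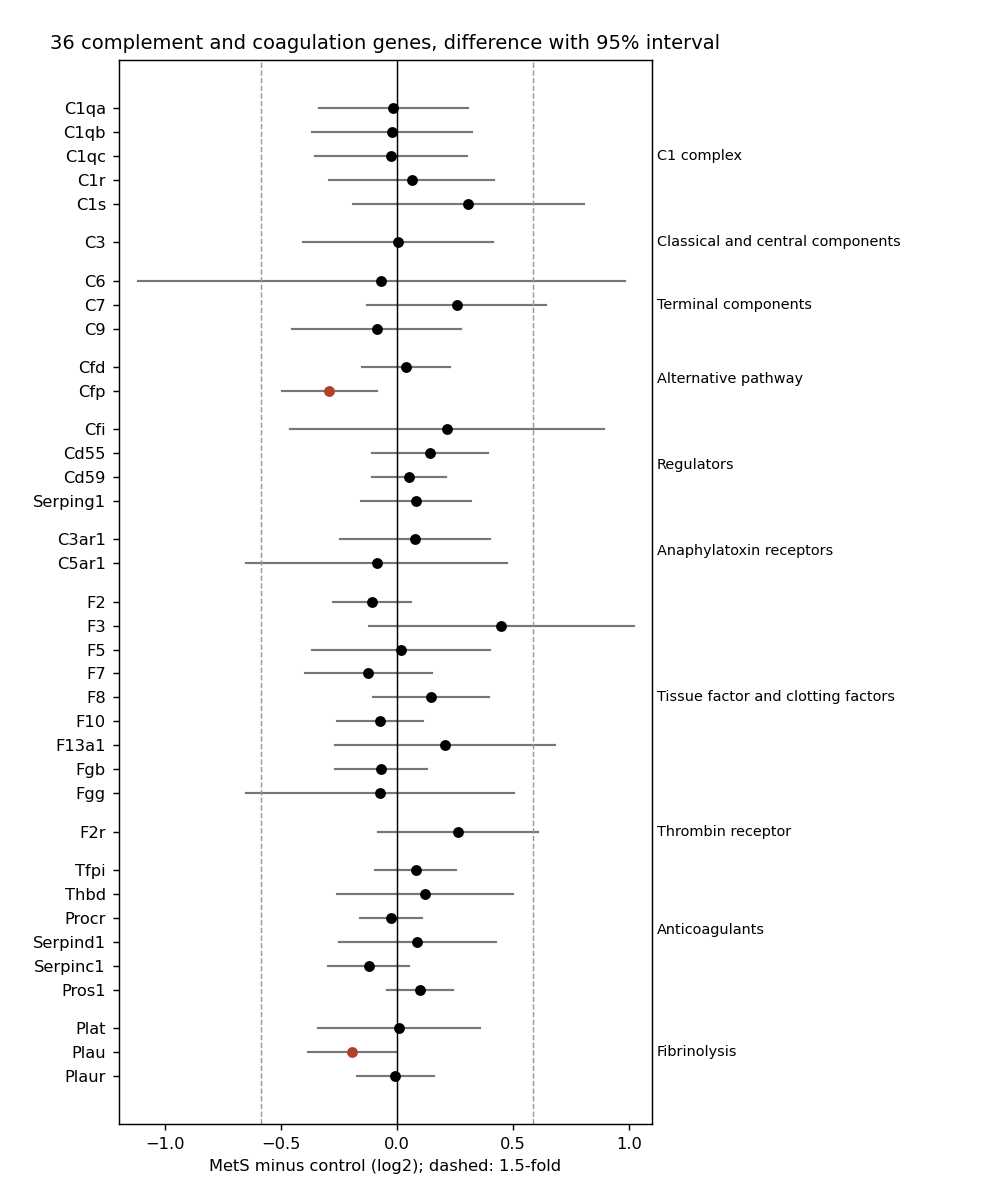
Differences of the 36 members, MetS minus control on the log2 scale, with 95% intervals of limma, by role; dashed lines mark 1.5-fold and red points an unadjusted p under 0.05. The points lie between -0.29 for Cfp and 0.45 for F3, and 27 of the 36 intervals stay inside the dashed lines.

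The C1 complex starts the classical pathway. C1qa, the A chain, stood at 8.59, 8.47 and 8.17 in MetS animals 1 to 3 and at 8.54, 8.48, 8.14 and 8.54 in controls 1 to 4. C1qb, the B chain, stood at 8.35, 7.87 and 8.02 against 7.92, 8.18, 7.96 and 8.34. C1qc, the C chain, stood at 8.56, 8.26 and 8.08 against 8.29, 8.33, 8.13 and 8.56. The groups overlapped over nearly their whole range for each chain, and MetS animal 1 was the highest of the 7 for all 3. The differences were -0.01, -0.02 and -0.03, with 95% fold intervals of 0.793 to 1.24, 0.777 to 1.25 and 0.783 to 1.23. In the spread-adjusted fit they were -0.28, -0.20 and -0.31, and none passed (0 of 3 at an unadjusted p under 0.05). These 3 genes lie side by side on rat chromosome 5 with no other protein-coding gene between them. The macrophage and monocyte list, 9 of 10 measured and named for the cells known to make C1q, overlapped as well, with a mean log2 value of 9.50 to 9.87 in MetS and 9.62 to 9.77 in controls.

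The proteases of the complex, C1r and C1s, are also neighbours, on chromosome 4. C1r stood at 10.22 ± 0.28 (SD, n = 3) in MetS and 10.16 ± 0.18 (SD, n = 4) in controls. C1s stood at 9.73, 9.40 and 9.07 in MetS against 9.40, 9.19, 8.64 and 9.15 in controls, a difference of 0.31 (limma, adjusted p = 0.516). Its groups overlapped, with MetS animal 1 at the top and control 3 at the bottom. Without controls 2 and 3 the difference was 0.13, without MetS animal 1 it was 0.14, and in the spread-adjusted fit it was -0.08. Serping1, the C1 inhibitor, which blocks both proteases, stood at 10.90 ± 0.18 in MetS and 10.82 ± 0.10 in controls.

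C3, on which all routes of activation converge, stood at 11.19, 11.94 and 11.42 in MetS and 11.54, 11.57, 11.31 and 11.62 in controls. The highest and the lowest of the 7 values were both MetS animals, and the means, 11.52 and 11.51, did not differ beyond that spread (limma, adjusted p = 0.989; 95% fold interval 0.756 to 1.33). The terminal components make the pore. C7 stood at 10.87, 11.06 and 11.31 in MetS against 10.75, 10.89, 10.50 and 11.14 in controls, a difference of 0.26 with overlapping groups (limma, adjusted p = 0.493). The C7 difference was 0.13 without controls 2 and 3, 0.36 without MetS animal 1 and 0.09 in the spread-adjusted fit. C6 varied most of all members: it stood at 7.99, 8.16 and 8.64 in MetS and at 8.08, 7.74, 9.61 and 7.90 in controls. Control 3 alone stood far above the other 6 animals, and its removal turned the difference from -0.07 to 0.36; it was 0.28 without controls 2 and 3 and 0.67 in the spread-adjusted fit. C9 stood at 6.64 ± 0.16 in MetS and 6.72 ± 0.27 in controls, a difference of -0.09 that was 0.08 without controls 2 and 3.

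The alternative pathway held the member that came closest to the test. Cfp, which codes for properdin, the stabiliser of the alternative pathway convertase and a product of neutrophils and other myeloid cells, stood at 9.57, 9.67 and 9.829 in MetS and at 10.05, 9.833, 9.995 and 10.05 in controls. All 3 MetS animals lay below all 4 controls, but MetS animal 3 and control 2 were nearly level. The means were 9.69 ± 0.13 (SD, n = 3) and 9.98 ± 0.10 (SD, n = 4), a 1.22-fold lower value in MetS (difference -0.29, SE 0.09, limma unadjusted p = 0.0121). Over all probes the adjusted p was 0.324, so the gene did not pass. The difference was -0.36 without controls 2 and 3 and -0.33 in the spread-adjusted fit, and its unadjusted p stayed under 0.05 in all 19 alternative fits, where it ranged from -0.36 to -0.23 and the adjusted p from 0.183 to 0.999. The neutrophil list, 7 of 7 measured, had a mean log2 value of 8.80 to 9.02 in MetS and 8.55 to 9.06 in controls, so the groups overlapped. Of its 7 genes 5 stood higher in MetS, and of the 9 measured in the macrophage and monocyte list 6 stood lower. Over all probes 15363 stood higher and 13463 lower. The part of these cells in the Cfp value was not tested. Cfd, the protease adipsin of the same pathway, stood at 7.47 ± 0.09 and 7.43 ± 0.11.

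The bases before the start of Cfp and of Plau, the members at the unadjusted threshold, are shown because no other member reached that threshold. Both are the 250 bases upstream of the RefSeq start in build GRCr8, Cfp on the plus strand at chrX:3715301-3715550 and Plau on the minus strand at chr15:3511988-3512237. Capitals mark GAGGAA or its reverse complement TTCCTC, the core letters of a site for the myeloid factor PU.1.
Cfp: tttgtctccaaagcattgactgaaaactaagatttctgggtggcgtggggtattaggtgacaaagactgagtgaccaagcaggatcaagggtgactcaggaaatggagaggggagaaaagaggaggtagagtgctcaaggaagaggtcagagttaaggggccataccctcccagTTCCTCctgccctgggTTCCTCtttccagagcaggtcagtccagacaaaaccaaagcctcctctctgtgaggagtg
Plau: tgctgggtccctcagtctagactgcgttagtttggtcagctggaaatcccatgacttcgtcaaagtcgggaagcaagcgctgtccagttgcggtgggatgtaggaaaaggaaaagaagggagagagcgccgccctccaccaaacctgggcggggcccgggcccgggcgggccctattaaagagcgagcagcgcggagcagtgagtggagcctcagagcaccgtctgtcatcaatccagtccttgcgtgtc
The Cfp window held 2 matches, both on the reverse strand and beginning 76 and 60 bases before the start, and the Plau window held 0. Of 33469 such windows 23.3% held a match and 3.39% held 2 or more. Of the 36 members 24 had a window, and 10 of these held a match. C1qb, Procr, Plaur and Serpinc1 held 2 matches as well. These are matches of letters, not measured sites.

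**Figure D2:**
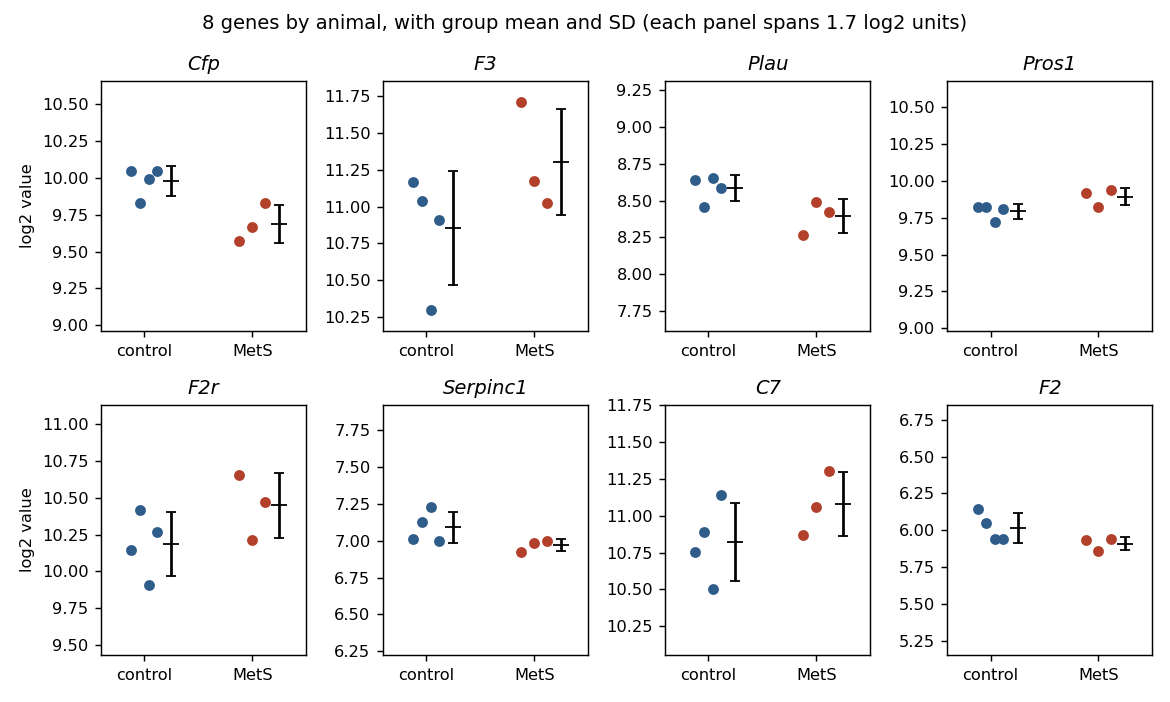
Log2 values of the 8 members with the smallest p, the widest difference or no overlap, by animal, with the group mean and SD beside the points (3 MetS, 4 control animals). For Cfp every MetS point lies below every control point, and for Pros1 every MetS point lies above, while the groups of the other 6 overlap.

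Of the regulators that hold complement in check on the body's own cells, Cd55, the decay-accelerating factor, stood at 11.43 ± 0.20 in MetS and 11.29 ± 0.10 in controls. Cd59, which blocks pore assembly, stood at 12.97 ± 0.09 and 12.92 ± 0.06, with a 95% fold interval of 0.928 to 1.16. Cfi, the protease that degrades active C3 and C4 fragments, was more variable, at 8.002, 7.01 and 7.31 in MetS and 7.45, 7.68, 6.86 and 6.90 in controls. Its difference of 0.22 was -0.06 without MetS animal 1. All 4 regulators, Serping1 included, had a mean difference above 0, and none passed the test (limma, 0 of 4 at an unadjusted p under 0.05). That direction rested on MetS animal 1: without it Cd55 stood at 0.03, while Cd59, Serping1 and Cfi stood at or below 0. In the spread-adjusted fit Cd59 and Serping1 were also below 0, at -0.02 each. The receptors for the anaphylatoxins, the small fragments that attract and activate leukocytes, had overlapping groups and did not pass either. C3ar1 had means of 8.36 ± 0.19 in MetS and 8.29 ± 0.21 in controls. For C5ar1 they were 10.26 ± 0.42 and 10.35 ± 0.34, with MetS animal 1 at 10.73 and control 1 at 10.80 as its 2 high values. The C5ar1 difference of -0.09 was -0.34 without controls 2 and 3, -0.32 without MetS animal 1 and -0.52 in the spread-adjusted fit (limma unadjusted p = 0.108).

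Tissue factor, the trigger of coagulation, had the widest difference of the 36. F3 stood at 11.71, 11.17 and 11.02 in MetS and at 11.17, 11.04, 10.30 and 10.91 in controls. MetS animal 1 stood above all others and control 3 below all others, while the remaining 5 animals lay between 10.91 and 11.17. The means were 11.30 ± 0.36 (SD, n = 3) and 10.85 ± 0.39 (SD, n = 4), a 1.37-fold difference with a 95% interval of 0.919 to 2.03 (limma, adjusted p = 0.435). The difference of 0.45 was 0.25 without MetS animal 1, 0.26 without control 3, 0.26 without controls 2 and 3, and 0.04 in the spread-adjusted fit. With 1 animal left out at a time it ranged from 0.25 to 0.59. Tfpi, the tissue factor pathway inhibitor, stood at 9.58 ± 0.13 and 9.50 ± 0.04. MetS animal 1 was also the highest animal of the mesothelium list, 3 of 5 measured. That list lay at 10.33 in that animal, 9.77 and 9.51 in the other MetS animals and 9.65 to 9.99 in controls. The same animal was highest for the macrophage and monocyte, alveolar type 2 and alveolar type 1 lists, at 9.87, 13.29 and 12.86. It was lowest for the endothelial list and for the list of fat cell markers, at 10.60 and 6.81. The part of any of these cells in the F3 value was not tested.

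**Figure D3:**
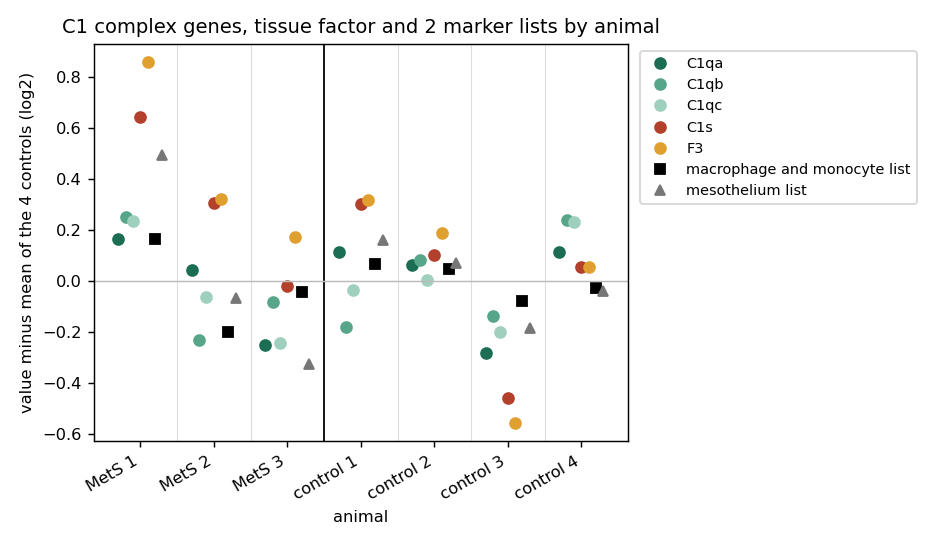
The 3 C1q chains, C1s, tissue factor (F3) and the means of the macrophage and mesothelium lists in each of the 7 animals, as the log2 value minus the mean of the 4 controls. F3 and C1s are highest in MetS animal 1 and lowest in control 3, and the C1q chains scatter on both sides of 0 in both groups.

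The clotting factors downstream mostly stood within the spread. F2, prothrombin, F7 and the fibrinogen chain Fgb had a mean at or below 6.48, the 25th percentile of all probe means, and are thus dim probes on these arrays. F2 read 5.93, 5.86 and 5.94 in MetS and 6.14, 6.05, 5.94 and 5.94 in controls, and 4 arrays, of both groups, held exactly the same value of 5.94. Equal values on 2 or more arrays were deposited for 7 members and for 40.9% of all probes, and F7, Fgb and C9 were among the 7, so small differences of these genes have little meaning. The hepatocyte list, 6 of 6 measured, was dim as well, with 4 of its 6 genes at or below that percentile and a mean log2 value of 6.23 to 6.29 in MetS and 6.23 to 6.47 in controls.

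The fibrinogen genes lie together on chromosome 2, and their levels cannot be compared across probes. Fgb had means of 5.81 ± 0.06 and 5.88 ± 0.13, and its neighbour Fga, which is no member, was likewise a dim probe. Fgg, the gamma chain, was not dim and ranged widely between animals: 11.11, 10.22 and 10.40 in MetS against 11.05, 10.71, 10.51 and 10.33 in controls. MetS animal 1 and control 1 were the 2 high animals, so the spread lay within both groups, and the difference was -0.07 with a 95% fold interval of 0.637 to 1.42. F13a1, the subunit of factor XIII that crosslinks fibrin and is found in platelets and macrophages, stood at 7.85, 8.42 and 7.76 in MetS and 8.15, 7.88, 7.61 and 7.58 in controls. MetS animal 2 was its highest animal and also that of the platelet list, 4 of 6 measured. That list lay at 8.15 in that animal, 7.59 and 7.66 in the other MetS animals and 7.51 to 7.87 in controls. The same animal was highest for the red cell list, at 12.32, and lowest for the macrophage and monocyte list, at 9.50. Without MetS animal 2 the F13a1 difference went from 0.21 to 0.00, and the part of platelets or macrophages was not tested. The cofactors F5 and F8 stood at 8.19 ± 0.25 against 8.17 ± 0.25 and at 8.46 ± 0.16 against 8.32 ± 0.14. The F8 difference of 0.15 was 0.06 without controls 2 and 3. F10, the protease that makes thrombin, stood at 7.28 ± 0.14 against 7.36 ± 0.06.

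Thrombin acts on cells through F2r, its protease-activated receptor, which stood at 10.66, 10.22 and 10.47 in MetS and 10.15, 10.42, 9.91 and 10.27 in controls. The groups overlapped, and the difference of 0.26 did not pass (limma, adjusted p = 0.445). It was 0.24 without controls 2 and 3, 0.16 without MetS animal 1 and 0.15 in the spread-adjusted fit. With 1 animal left out at a time it ranged from 0.16 to 0.38. On the anticoagulant side Pros1, protein S, the cofactor of activated protein C, stood at 9.92, 9.826 and 9.94 in MetS and at 9.824, 9.82, 9.72 and 9.81 in controls. The groups just failed to overlap. The 2 arrays of control 1 lay at 9.814 and 9.833, the latter above MetS animal 2. The lack of overlap thus did not hold for the second of those arrays taken alone. The difference was only 0.10 (SE 0.06, limma unadjusted p = 0.139, adjusted p = 0.471). It became 0.03 when the arrays were quantile normalized again. Serpinc1, antithrombin, read 6.92, 6.99 and 7.00 against 7.01, 7.13, 7.23 and 7.00, a difference of -0.12 that was -0.04 without controls 2 and 3. Serpind1, heparin cofactor II, stood at 6.91 ± 0.22 against 6.82 ± 0.21.

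The endothelial anticoagulants had overlapping groups. Thbd, thrombomodulin, which turns thrombin towards protein C, stood at 9.24, 9.74 and 9.59 in MetS and 9.31, 9.52, 9.13 and 9.66 in controls, a difference of 0.12 that was 0.04 without controls 2 and 3. Procr, the endothelial protein C receptor, stood at 7.98 ± 0.01 against 8.01 ± 0.05; 3 of its arrays held exactly the same value, and the 2 arrays of control 1 were 0.18 apart, more than the range of 0.13 over the 7 animals. The endothelial list, 7 of 7 measured, had a mean log2 value of 10.60 to 11.04 in MetS and 10.76 to 10.97 in controls.

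Fibrinolysis is driven by the plasminogen activators. Plau, urokinase, stood at 8.27, 8.49 and 8.42 in MetS and at 8.64, 8.46, 8.66 and 8.58 in controls. Control 2 lay among the MetS animals and the other controls lay above them. The means were 8.39 ± 0.11 (SD, n = 3) and 8.59 ± 0.09 (SD, n = 4), a 1.14-fold lower value in MetS (difference -0.19, SE 0.08, limma unadjusted p = 0.0484, adjusted p = 0.362). The 2 arrays of control 1, at 8.74 and 8.54, were 0.20 apart, more than the group difference. That difference was -0.22 without controls 2 and 3 and -0.13 without MetS animal 1, and the unadjusted p was under 0.05 in 8 of 19 alternative fits. Its receptor Plaur stood at 9.36 ± 0.10 and 9.37 ± 0.06, and the tissue activator Plat, a product of endothelium, at 10.44 ± 0.20 and 10.43 ± 0.23.

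Animals of one group stood farther apart than repeat arrays of one animal. Over the 36 members the 2 arrays of one animal were a median of 0.06 apart for MetS animal 1 and 0.04 for control 1, while different animals were a median of 0.22 apart within MetS and 0.18 within controls. MetS animal 1 was the highest animal for 15 of 36 members, or 41.7%, beside 22% of all genes, and control 3 the lowest for 12, or 33.3%, beside 26.5%. In these animals the extremes ran across roles: MetS animal 1 led for C1r, C1s, Cfi, Cd55, Cd59, Serping1, F3, Fgg and F2r, among others. These shares are a description of 7 animals, with no test.

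**Figure D4:**
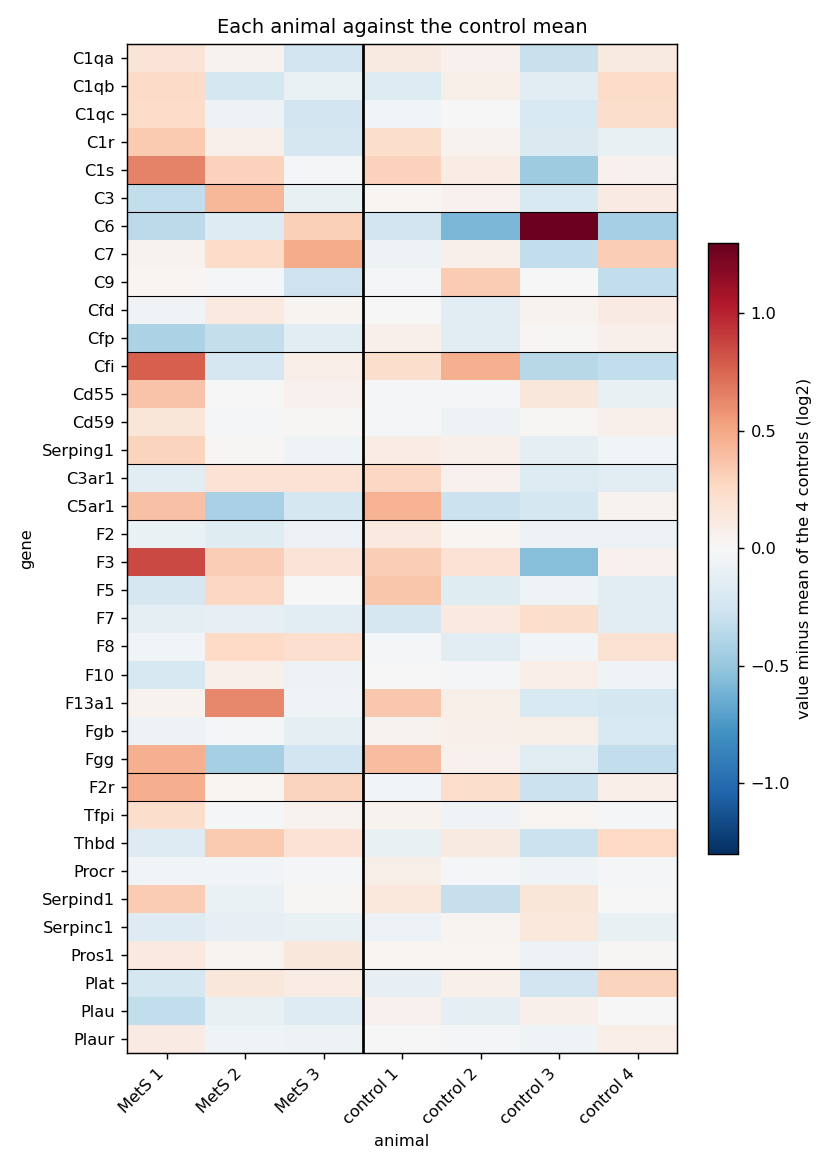
Log2 value of each member in each animal minus the mean of the 4 controls, with the members ordered by role and the vertical line between MetS and control animals. MetS animal 1 is the highest of the 7 in 15 rows and control 3 the lowest in 12, and C6 in control 3, at 9.61, lies farthest from the control mean.

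The other genes of the 2 cascades were read in the same way. Of 66 further names 59 were measured, with a median difference of 0.02. None of the 59 passed (limma, 0 at an adjusted p under 0.05), 3 had an unadjusted p under 0.05, or 5.08% beside 13.7% of all probes, and 3 did not overlap between the groups, or 5.08% beside 11.7%. The 3 at the unadjusted threshold were lower in MetS as deposited, whereas after quantile normalization 5 genes were at that threshold and all were higher. Cr2, the complement receptor of B cells, stood at 5.99, 6.65 and 6.53 in MetS and 6.79, 6.75, 6.92 and 6.92 in controls, with no overlap and a difference of -0.45 (adjusted p = 0.324). MetS animal 1 was its lowest animal, and without it the difference was -0.25; in the spread-adjusted fit it was -0.36 (limma unadjusted p = 0.156). F13b, the carrier subunit of factor XIII, stood at 5.83 ± 0.13 against 6.20 ± 0.28 with no overlap. Its 2 arrays of control 1 lay at 5.943 and 5.989, the former below MetS animal 3, at 5.957. The F13b difference of -0.37 was 0.03 in the spread-adjusted fit. Tfpi2, a protease inhibitor related to Tfpi, had a difference of -0.21, which was -0.02 in the spread-adjusted fit. The lectin Fcna, with no overlap, stood at 7.97 ± 0.12 against 7.86 ± 0.02, a difference of 0.11 that was 0.04 without MetS animal 1. Its 2 arrays of control 1 lay at 7.75 and 7.97, the latter above MetS animals 2 and 3, at 7.91 and 7.89. The lack of overlap of Fcna thus did not hold for the second of those arrays taken alone, nor that of F13b for the first. F13b and Tfpi2 were dim probes, as were 14 of the 59. Cr2 and Fcna had a mean over the 7 animals above the 25th percentile of 6.48. For Cr2 the mean was 6.84 in controls but 6.39 in MetS, below that cut, with MetS animal 1 alone under it.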

How the data were processed

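Lung RNA of 3 MetS and 4 control rats was hybridised to 9 arrays. The authors deposited a single table, in which each array has a column of log2 expression values. The submitters' processing notes name R 2.11.0, RMA and limma without roles; the build is not given in the sources consulted. Per the labels' protocols, 50 ng of RNA with an integrity number of at least 6 went on each array. Nothing says more of how the animals were chosen or raised together, and their number limits precision.

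Probe names came from the platform annotation, brought up to date through RefSeq (assembly GRCr8), the source of the promoter sequences too: 15209 of 28826 probes had 1 symbol, 15184 of these matched a current gene, 306 had several symbols and 13311 none. Repeat arrays of an animal were averaged. Groups were compared over all 28826 probes with limma 3.58.1 in R 4.3.3 (lmFit, eBayes; 7.28 degrees of freedom), and p-values were adjusted by Benjamini and Hochberg's method at 0.05. The procedure was tested on simulated data. Tables and figures used Python 3.11.15, pandas 2.3.3, numpy 2.4.6 and matplotlib 3.10.9.

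Members and lists were chosen with earlier results of these data known. Named by rule were members at an unadjusted p under 0.05, without overlap or at a difference of at least 0.4, filled to 8 by smallest p (Cfp, Plau, Pros1, F3, F2r, Serpinc1, C7 and F2); other members given by animal were chosen after their values were seen. Among other pathway genes, those at an unadjusted p under 0.05 or without overlap were named. The alternatives changed the arrays used, the normalization, the probe filter, the moderation, the model terms (spread, replicate number) and the call rule, or left out animals.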

Additional observations from a re-analysis of the deposited data

Results flagged for a closer look

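In 40 groups of 4 control animals, 36 for the members and 4 for the other genes named, a single control stood far from the other 3 for 3 members; chance flags about 1 in 20 such groups. For C1qa, control 3 lay at 8.14 while the other controls lay between 8.48 and 8.54. For Pros1, control 3 lay at 9.72 and the others between 9.81 and 9.82. For Fgb, a dim probe, control 4 lay at 5.69 and the others between 5.93 and 5.96.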

How the results depend on the processing

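No member passed an adjusted p of 0.05 in limma in any of the 19 alternative fits, and the median difference of the members stayed between -0.02 and 0.05. The count of members at an unadjusted p under 0.05 went from 2 to 1, Cfp, in the spread-adjusted fit, with all 9 arrays and the animal as a random block, with centring, with the first array of each animal and without controls 2 and 3. It was 0 at an unadjusted p under 0.01 or with a difference of at least 0.3 asked for as well, and 1 to 3 when 1 animal was left out; it was 1 without MetS animal 1, MetS animal 3, control 1 or control 3. Of the other pathway genes, 3 at first, the count was 0 in the spread-adjusted fit, without controls 2 and 3 and at a p under 0.01, 1 without dim probes, 5, all higher in MetS, with quantile normalization, and 0 to 9 when 1 animal was left out (0 without control 3, 9 without control 4). Over all probes the count of 3959 was 1023 in the spread-adjusted fit (483 higher, 540 lower), 2096 among probes with 1 symbol, 1510 without controls 2 and 3, 2181 without dim probes, 788 at a p under 0.01, and 2168 to 6180 when 1 animal was left out. The spread-adjusted fit turned the sign of 15 of the 36 members, quantile normalization that of 7; Serpinc1 became 0.023 in the former and F2 0.11 in the latter, and the cause was not tested.

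With the replicate block, in which the number of each animal was a term, 6747 probes had an unadjusted and 2017 an adjusted p under 0.05; of the members 3 were at the unadjusted threshold (C1s, Cfp and F3) with 0.0941 as the smallest adjusted p, and of the other pathway genes 13, with 1 at the adjusted one. Control 4 has no partner and drops out of that comparison. Animals of the same number correlated at 0.27, -0.12 and 0.34 in their deviations, and 1 of 3 MetS animals correlated best with its own number, so the numbers were not taken as pairs.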
